A study of Mus musculus with 5 samples.

Results

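H3K9me3, histone H3 trimethylated at lysine 9, was mapped by chromatin immunoprecipitation with sequencing (ChIP-seq) in TBV2 mouse embryonic stem cells with and without L-proline. The data described are the enriched regions, called islands, that the authors listed on the 19 autosomes for 1 H3K9me3 library per condition. They number 42119 of the 73415 islands in the 4 lists used, which cover this mark and H3K36me3. The list of untreated embryonic stem cells (ESC) held 17697 autosomal islands, and the list of L-proline-induced cells (PiC) held 24422. A further 767 and 1445 islands on the X and Y chromosomes were left out. Islands that met exactly 1 island of the other list, and were met by that island alone, formed 12235 pairs. Ratios between the conditions were taken at these pairs.

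Both cultures were of the TBV2 line, strain 129/SvP, grown without feeder cells on gelatin at low density in complete medium that lacked non-essential amino acids and contained LIF. They were kept for 5 days, the ESC culture with no addition and the PiC culture with 500 µM L-proline. Chromatin was precipitated with the same H3K9me3 antibody (Abcam ab8898) and sequenced on a SOLiD System 4 instrument, and the series holds 5 libraries in all. The comparison asks whether this amino acid alters the mark in these cells. With 1 library per condition, the spread between cultures is unknown, no p-value is given, and every difference below is between these libraries. Intervals are 95% intervals over islands or tags. Those over islands cover the spread among islands, taken as independent of each other, and those over tags cover counting error. Neither covers the spread between cultures, because islands of 1 library are not replicates. Copies of a fragment made by PCR are not separate molecules, and the intervals over tags do not allow for them.

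H3K9me3 is laid down by the SUV39H enzymes, mainly on the satellite repeats beside centromeres, and by SETDB1, mainly on endogenous retroviruses and on silenced or imprinted genes. Heterochromatin protein 1 binds the mark and recruits further enzyme, which is one way in which the mark spreads along chromatin. H3K36me3 lies over the bodies of transcribed genes and is used here to describe where H3K9me3 islands sit. The deposited lists use mouse build mm9 and carry no gene names, so islands are given by position and no gene is assigned to them.

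The ESC islands on autosomes held 1440142 tags over 53.2 Mb, and the PiC islands held 3294772 tags over 91.4 Mb. The median island was 2.6 kb wide with 25.6 tags per kb in ESC and 3.2 kb wide with 33.3 tags per kb in PiC. Islands ranged from 0.2 kb in both lists to 75.4 kb in ESC and 73.0 kb in PiC. The numbers of reads behind the lists are unknown, and tag counts are not scaled to them. Levels are therefore compared only after centring, that is, after the autosomal median of the log2 ratio has been subtracted. A difference in overall H3K9me3 level between the conditions cannot be told apart from a difference in sequencing depth. Widths and numbers of islands cannot be centred in this way, and the part of depth in them was not tested.

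The pairs made up 69.1% (68.4% to 69.8%, exact binomial interval) of the ESC islands and 50.1% (49.5% to 50.7%) of the PiC islands. The other ESC islands were 3732 that met no PiC island (21.1%), 271 that met several (1.53%) and 1459 that shared their PiC partner with another ESC island (8.24%). In the PiC list, 10982 islands met no ESC island (45.0%), 731 met several (2.99%) and 474 shared their ESC partner (1.94%). More islands were thus joined in PiC than were divided. The 731 PiC islands that spanned several ESC islands had a median width of 8.0 kb, over a median of 6.0 kb of ESC islands and 1.0 kb of gaps between them. Of these islands, 671 spanned 2 ESC islands, 53 spanned 3 and 7 spanned more. Their centred log2 ratio of tags per kb had a median of -0.024 (-0.058 to 0.010). ESC tags were divided by the bases under ESC islands alone, and PiC tags by the whole PiC island, gaps included. Whether the joined stretches differ in density from the pairs therefore cannot be read from this median.

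At the pairs, the ESC island had a median of 64 tags (quartiles 44 and 98) in 2.4 kb, and the PiC island had 125 tags (83 and 192) in 3.6 kb. The uncentred log2 ratio of PiC to ESC had a median of 0.90 (0.89 to 0.91) for tags, a 1.86-fold difference. It was 0.43 (0.41 to 0.44) for tags per kb, or 1.34-fold, and 0.42 (0.415 to 0.44) for width, or 1.33-fold. The log2 difference in tags was thus made up of density and width to a like extent, but this balance depends on the pairs: with a reciprocal overlap of 50% the ratios were 0.52 for tags per kb and 0.22 for width. After the median of 0.43 had been subtracted, the log2 ratio of tags per kb lay between -0.36 and 0.30 for the middle 50% of pairs and between -1.01 and 0.70 for the middle 90%. The lower tail was the longer one.

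A density at least 2-fold higher in PiC, after centring, was found at 133 pairs, 1.09% of all pairs. A density at least 2-fold lower was found at 634 pairs, 5.18%. This imbalance depends on dividing by width: with total tags centred in place of tags per kb, 5.78% of pairs were at least 2-fold higher and 5.48% at least 2-fold lower. Density and width moved in opposite directions across pairs. The correlation of their log2 ratios over 12235 pairs was -0.62 (Pearson) and -0.56 (Spearman), and that of tags with width was 0.76 and 0.74. The density includes the width in its denominator, so the first of these is in part built in, and no p is given.

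**Figure D1:**
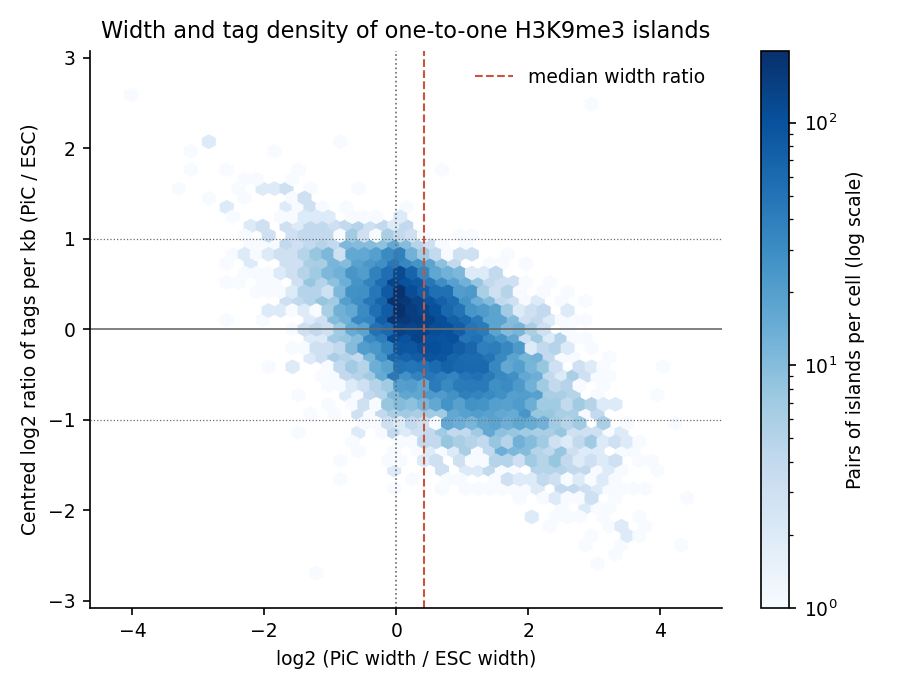
Each of the 12235 pairs of overlapping H3K9me3 islands is placed by its log2 width ratio, PiC over ESC (horizontal axis), and by its log2 ratio of tags per kb centred on the autosomal median (vertical axis). The colour of each hexagon gives the number of pairs in it on a log scale, and the cloud tilts downwards (Pearson r -0.62) around a median log2 width ratio of 0.42, drawn as a dashed line.

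In most pairs the PiC island was the wider one. The PiC island was wider in 8855 pairs (72.4%), of the same width in 1051 (8.59%) and narrower in 2329. It was at least 2 times as wide in 3152 pairs (25.8%) and at most 0.5 times as wide in 324 (2.65%). Each edge lay a median of 200 bp further out in PiC, which is 1 window of the grid on which the islands were called, and the upper quartile was 1000 bp on either side. The left edge was further out in 56.3% of pairs and the right edge in 55.3%.

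The shifts of the 2 edges of an island showed little relation to each other. The shifts of the left and right edge had a Pearson correlation of 0.054 over the 12235 pairs. Both edges lay further out in 3849 pairs (31.5%), both further in at 543 (4.44%), and both were identical in 748 (6.11%). The shift per edge had medians of 0, 200, 400 and 500 bp from the narrowest to the widest of the 4 classes described next, and both edges lay further out in 22.9%, 31.4%, 38.6% and 41.0% of their pairs.

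Pairs were then grouped by width, as the geometric mean of the ESC and PiC widths, into classes with limits of 2, 4 and 8 kb. The 2822 pairs narrower than 2 kb went from a median of 33.8 tags per kb in ESC to 38.0 in PiC. Their centred log2 ratio was -0.21 (-0.23 to -0.18). The 6103 pairs of 2 to 4 kb went from 25.7 to 33.8 tags per kb and lay at the autosomal median. The 2964 pairs of 4 to 8 kb went from 25.9 to 37.0 tags per kb, with a centred ratio of 0.10 (0.082 to 0.12). The 346 pairs of 8 kb or more went from 29.8 to 44.1 tags per kb, with a centred ratio of 0.14 (0.099 to 0.21). Density was thus lowest in PiC, relative to ESC, at the narrow islands and highest at the wide ones.

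The share of pairs at least 2-fold lower in PiC was 13.2% in the narrowest class, then 3.59%, 1.21% and 1.73%. The share at least 2-fold higher was 1.88%, 1.03%, 0.540% and 0.289% in the same order, so the narrowest class led in both directions. The median of the islands of at least 4 kb exceeded that of the islands under 2 kb on 19 of 19 autosomes, by 0.21 to 0.45 on the log2 scale with a median of 0.27. Widening in proportion went the other way, from 1.38-fold in the narrowest class to 1.35-fold, 1.32-fold and 1.21-fold in the widest.

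The trend with width rests on which width forms the classes. With classes of ESC width, the centred ratios were -0.34, 0.076, 0.21 and 0.16 from narrow to wide, and the widening was 2.0-fold, 1.3-fold, 1.08-fold and 1.02-fold. With classes of PiC width they were 0.089, -0.013, -0.031 and 0.024, so the sign in the narrowest class was reversed and the trend was gone. Pairs whose edges matched within 200 bp depend less on this choice. There were 2090 such pairs (17.1%), a subset chosen after the data had been seen, and 94.3% of them fell into the same class by either width. Their ratios were -0.086, 0.033, 0.11 and 0.14, relative to a centre of 0.59, over 787, 943, 325 and 35 pairs. The interval of the 35 widest, -0.017 to 0.34, included 0. The order of the medians was kept among islands of like extent, and the difference between the narrowest and the other classes was smaller.

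The lists also differ in the lowest density that an island of a given width reached. The 5th percentile in islands narrower than 2 kb was 20.6 tags per kb in ESC and 27.2 in PiC, and their fewest tags were 18 and 23. In islands of 8 kb or more it was 13.2 and 23.9 tags per kb. The floor thus differed between the lists most for wide islands, and its part in the trend with width was not tested.

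**Figure D2:**
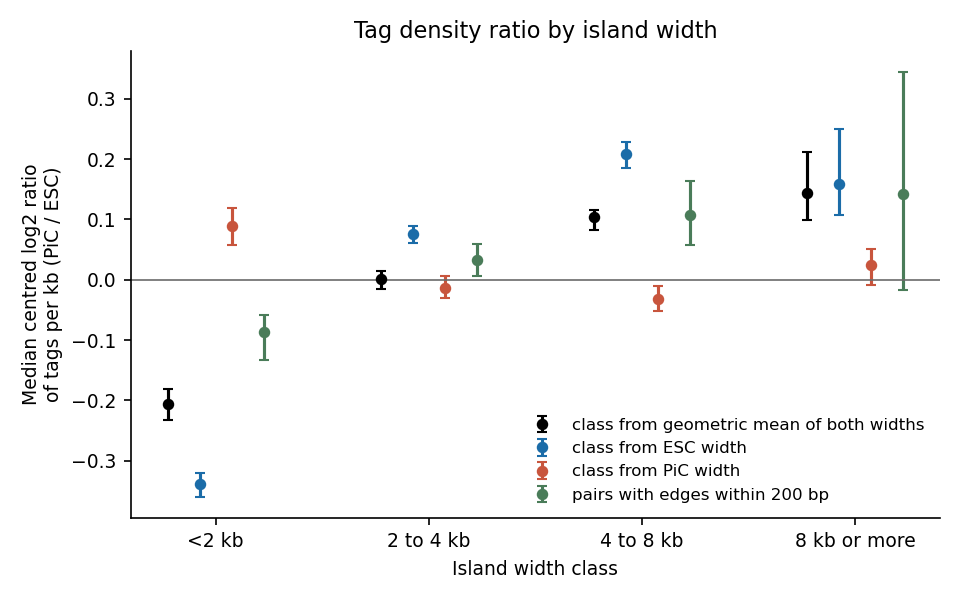
Centred log2 ratios of tags per kb (PiC over ESC, median with 95% interval over islands) are plotted by width class in kb, for classes of mean, ESC and PiC width and for pairs with edges within 200 bp. The ratio goes from -0.21 to 0.14 with mean width, whereas classes of PiC width stay between -0.031 and 0.089.

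Density itself gave an order too. In 5 equal classes of the mean tags per kb of both lists, from lowest to highest, the centred ratio was 0.11, 0.048, 0.0015, -0.089 and -0.13. The share of pairs at least 2-fold lower in PiC went from 0.735% in the first to 11.9% in the last. On a log scale densities spread more in ESC, with quartiles of 21.9 and 35.5 tags per kb against 29.7 and 44.0 in PiC. Classes of their mean are then ordered in this direction in part by construction. The narrowest width class was also the densest in ESC, and the trends with width and density were not separated. The islands with the most tags did not follow the order with density.

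The 4 pairs with the most tags were all denser in PiC by nearly the same factor. The widest, on chromosome 11, spanned 3025601 to 3101000 in ESC with 12657 tags and 3027201 to 3100200 in PiC with 24497 tags. Its density went from 167.9 to 335.6 tags per kb, a centred log2 ratio of 0.57 (0.54 to 0.60, exact binomial interval of the PiC share of tags).

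The pair on chromosome 2 (98502201 to 98507800) held 5097 tags in ESC and 10373 in PiC, with a centred ratio of 0.60. At 910 and 1852 tags per kb it was the densest of the 4. Both pairs on chromosome 9 lay within 0.1 Mb of the first autosomal island there. The one at 3015001 to 3033000 held 5055 and 10089 tags, and the one at 2999801 to 3009200 held 2471 and 4943, each with a centred ratio of 0.57. These 3 pairs had identical edges in both lists. With total tags centred in place of tags per kb, the 4 ratios were 0.056 to 0.13. The median pair, on which they are centred, was wider in PiC and these were not. The ESC densities of the 4 pairs, from 167.9 to 910 tags per kb, lay far above the median of 27.3 over all pairs. The input was not examined at them, so how much of their tags the mark accounts for was not tested.

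The tag count of a pair sets how far its ratio can be read. The exact binomial interval of the PiC share of tags gave a median interval of 0.66 on the log2 scale to either side at pairs with under 100 tags in both lists together. It was 0.53 from 100 tags, 0.39 from 200 tags and 0.27 at 400 tags or more. This interval lay wholly above the autosomal median at 2074 pairs (17%) and wholly below it at 2396 (19.6%). In the deepest class the shares were 32.7% above and 22.3% below, and in the shallowest 7.28% and 20.2%. Differences of 2-fold to the lower side were found in 11.0% of the shallowest pairs and in 2.26% of the deepest.

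Single islands were named from the pairs with at least 200 tags in all and widths within 1.5-fold of each other. Of these 3210 pairs, 16 (0.498%) were at least 2-fold higher in PiC after centring and 30 (0.935%) at least 2-fold lower. The 8 highest and the 8 lowest are described. They were picked for their ratio, so the ratios are descriptions. With total tags centred in place of tags per kb, the 8 highest lay between 0.065 and 1.02 and the 8 lowest between -2.30 and -1.42.

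The highest ratio was on chromosome 1 at 50219201 to 50223800, where 78 tags in ESC (17.0 per kb) stood against 295 in PiC (59 per kb). Its centred log2 ratio was 1.37 (1.01 to 1.75). Chromosome 10 at 24555801 to 24560600 held 96 and 302 tags, with a ratio of 1.23. Chromosome 5 at 80241401 to 80244000 held 89 and 192 tags, and its PiC island was the narrower one, with a ratio of 1.21. The other five lay on chromosome 1 (starting at 184558201 and 46065201), chromosome 13 (75614001 and 54504001) and chromosome 17 (68089401), with ratios from 1.10 to 1.17. Both islands on chromosome 13 were narrower in PiC, from 8.4 to 5.6 kb and from 7.6 to 5.2 kb, and their centred ratios of total tags were 0.065 and 0.079. The island on chromosome 5, from 2.6 to 1.8 kb, gave 0.21 in the same way. Chromosome 1 held 3 of the 8 and 13.4% of the 3210 pairs they were picked from.

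The lowest ratio was on chromosome 15 at 72635601 to 72644000. This island held 567 tags in ESC (67.5 per kb) and 215 in PiC (26.9 per kb), a centred ratio of -1.75 (-1.99 to -1.53). It had fewer tags in PiC even before centring, whereas the median pair had 1.86 times as many. The next on chromosome 7 (140232001 to 140237600) held 365 and 186 tags, with a ratio of -1.64. Chromosome 17 at 34350801 to 34357200 held 531 and 256 tags, with a ratio of -1.52.

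Chromosome 6 held 2 of the 8 and 5.45% of the 3210 pairs. Its island at 30682601 to 30691000 held 385 and 183 tags, and its island at 4696001 to 4699800 held 182 and 82, each with a ratio of -1.50. The others were on chromosome 8 (42160201 to 42163800, 308 and 214 tags, -1.48), chromosome 7 (6680001 to 6684600, 311 and 154 tags, -1.44) and chromosome 9 (98567201 to 98570800, 161 and 107 tags, -1.43). The limits on ratio and width leave only islands with fewer tags in PiC here. An H3K36me3 island touched the pair in both conditions at 3 of the 8 lowest and at 0 of the 8 highest. Those 3 were on chromosome 8, at the end of chromosome 7 and at 30682601 on chromosome 6. The rest of the 8 lowest were touched in neither condition. Some of the 8 highest were touched in 1 condition: in PiC alone on chromosome 10 and at 75614001 on chromosome 13, and in ESC alone on chromosome 17. Over the 3210 pairs the share touched in both conditions was 5.51%. The 0 of 8 is thus near that background, and 3 of 8 is a small count chosen by ratio.

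By chromosome, density was nearly flat. The median centred ratio ran from -0.073 on chromosome 13 and -0.060 on chromosome 15 to 0.037 on chromosome 3 and 0.040 on chromosome 7, and its interval excluded 0 on 2 of 19 autosomes. The medians of width had a wider range, but their interval excluded the median of all pairs on 2 of 19 autosomes too. The median log2 width ratio was lowest on chromosome 15 (0.26) and chromosome 16 (0.32) and highest on chromosome 1 (0.55), with chromosome 13 next (0.46). The 2 autosomes were chromosome 1 (0.50 to 0.58) and chromosome 15 (0.21 to 0.35), so the wider range rested mainly on them. The log2 ratio of tags followed, from 0.70 on chromosome 15 to 1.05 on chromosome 1.

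**Figure D3:**
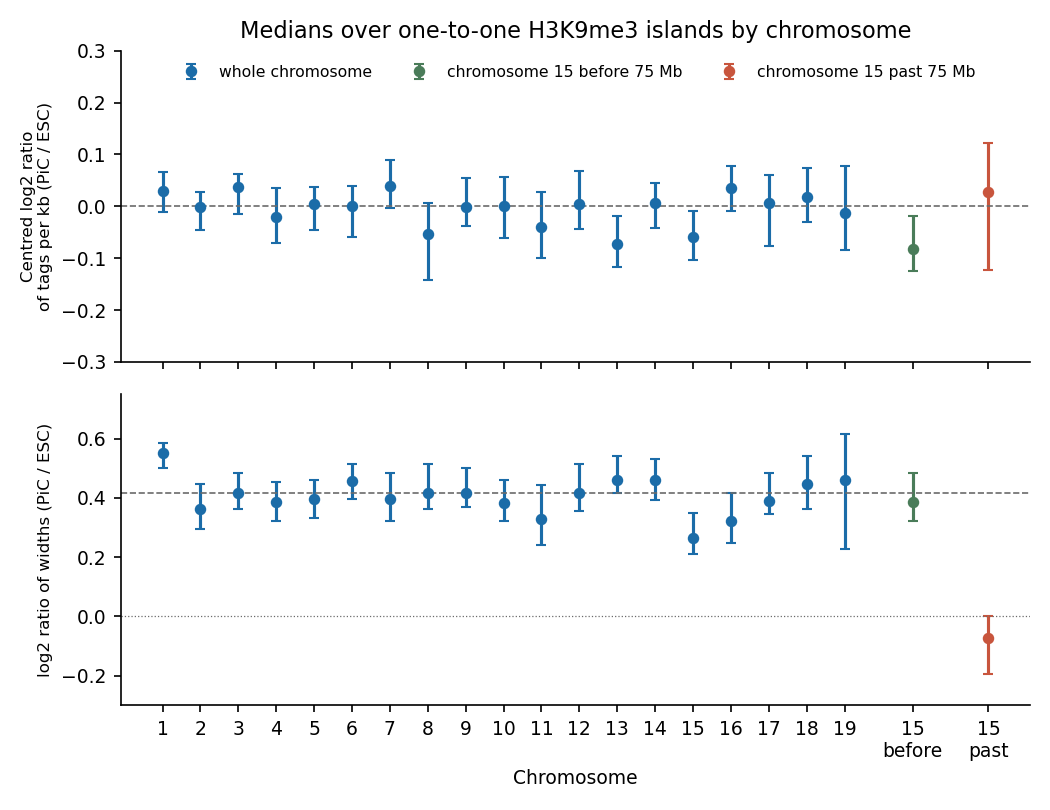
Median log2 ratios of PiC over ESC with 95% intervals over islands are plotted for the 19 autosomes and for chromosome 15 before and past 75 Mb, for centred tags per kb (top) and width (bottom), with dashed lines at the median of all pairs. Density medians of whole chromosomes stay between -0.073 and 0.040, and the width median past 75 Mb of chromosome 15, at -0.073, is the lowest point.

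The low width ratio of chromosome 15 lay on its distal side. The limit of 75 Mb was taken from an earlier description of these lists, in which fewer PiC islands were found past it, so the comparison of widths and densities there is not independent of it. Past 75 Mb, 148 pairs had a median width of 3.0 kb in ESC and 2.8 kb in PiC, a log2 width ratio of -0.073 (-0.19 to 0). The PiC island was wider in 39.9% of them and narrower in 52.0%. On the other autosomes it was wider in 72.8% of 11663 pairs and narrower in 18.6%. Before 75 Mb, 424 pairs of chromosome 15 had a log2 width ratio of 0.39, or 1.31-fold, and 73.1% were wider in PiC. Their log2 ratio of tags was 0.80 (0.75 to 0.87) and their centred ratio of tags per kb -0.082 (-0.12 to -0.018).

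Tags past 75 Mb had a median of 85 in ESC and 100 in PiC, a log2 ratio of 0.36 (0.21 to 0.48) against 0.90 on the other autosomes. Their centred ratio of tags per kb was 0.027 (-0.12 to 0.12). This interval includes the -0.082 found before 75 Mb, so the parts of chromosome 15 were not told apart in density. With each list cut to its 50% richest in tags, 74 pairs remained past 75 Mb, with a centred ratio of -0.16 (-0.41 to -0.0058) and a log2 width ratio of 0.022 (-0.14 to 0.12), so both medians turned sign there. A PiC island at least 2 times as wide was found in 12.2% of these pairs, against 25.8% over all. The position within the chromosome alone gave smaller differences: the log2 width ratio was 0.39 for 4371 pairs past 75 Mb on the other autosomes and 0.32 for the 2124 pairs in their last 30 Mb. Of 283 bins of 5 Mb with at least 20 pairs, the lowest width ratios were both on distal chromosome 15. At 95 to 100 Mb it was -0.31, from 3.0 to 2.4 kb over 36 pairs, and at 80 to 85 Mb it was -0.28, from 3.7 to 2.5 kb over 34 pairs.

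Chromosome ends differed in width as well. Mouse chromosomes have the centromere at their start. The 1724 pairs in the first 10 Mb of island-bearing sequence had a log2 width ratio of 0.51 (0.47 to 0.56), or 1.43-fold. The 888 pairs in the last 10 Mb had 0.24 (0.18 to 0.32), or 1.18-fold, and the 9623 pairs between them had 0.42. Without chromosome 15 the last 10 Mb gave 0.28 over 829 pairs. The width ratio in the first 10 Mb was above that of the middle on 15 autosomes and below it on 3. In the last 10 Mb it was above on 5 and below on 13.

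The width ratio varied within the last 10 Mb. From 3 to 5 Mb before the last base under any island it was 0.14 (0.067 to 0.34) over 200 pairs, and from 5 to 10 Mb it was 0.18 (0.093 to 0.30) over 408 pairs. From 1 to 3 Mb it was 0.415 (0.26 to 0.58) over 137 pairs, equal to that of all pairs, and in the outermost 1 Mb it was 0.32 (0.17 to 0.51) over 143 pairs. At the other end, the width ratio was 0.43 (0.32 to 0.56) in the first 1 Mb, over 238 pairs, and 0.57 (0.45 to 0.62) from 1 to 3 Mb, over 375 pairs.

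The log2 ratio of tags was 0.99 in the first 10 Mb, 0.68 in the last and 0.895 between. The centred ratio of tags per kb was 0.025 (-0.0027 to 0.051) in the first 10 Mb and -0.054 (-0.089 to -0.0049) in the last, so density differed far less along the chromosome than width did.

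H3K36me3 was used as a measure of transcribed surroundings, since an earlier description of these lists had shown the numbers of H3K9me3 islands to vary with it. At 485 pairs an H3K36me3 island touched the H3K9me3 island in both conditions. These had a centred ratio of tags per kb of -0.13 (-0.18 to -0.066) and a log2 width ratio of 0.14. The 11246 pairs touched in neither condition had 0.0044 and 0.44. At the 464 pairs touched in PiC alone the ratios were 0.025 and 0.25, and at the 40 touched in ESC alone the density ratio was -0.19 (-0.48 to 0.11).

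The same order in width held for the surroundings. Windows of 5 Mb were put into 4 classes by the share of bases under the H3K36me3 islands of ESC. Mean shares were 1.48%, 5.17%, 9.96% and 19.5%. From the poorest to the richest class, the log2 width ratio of H3K9me3 pairs was 0.50, 0.49, 0.40 and 0.25, or 1.42-fold, 1.40-fold, 1.32-fold and 1.19-fold. That of tags was 1.0, 0.93, 0.85 and 0.71, and the centred density 0.020, 0.0067, -0.015 and -0.028. The width ratio was thus lowest where H3K36me3 was most abundant. In the last 10 Mb of chromosomes, the 261 pairs in windows of the richest class had a log2 width ratio of 0, and the 627 in the other classes had 0.35. The low width ratio in the last 10 Mb thus moved with H3K36me3 coverage, whose part in it was not tested. Chromosome 15 was not left out of this split. Over whole chromosomes, the richest class had a log2 width ratio of 0.043 on chromosome 15 and 0.26 without it.

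**Figure D4:**
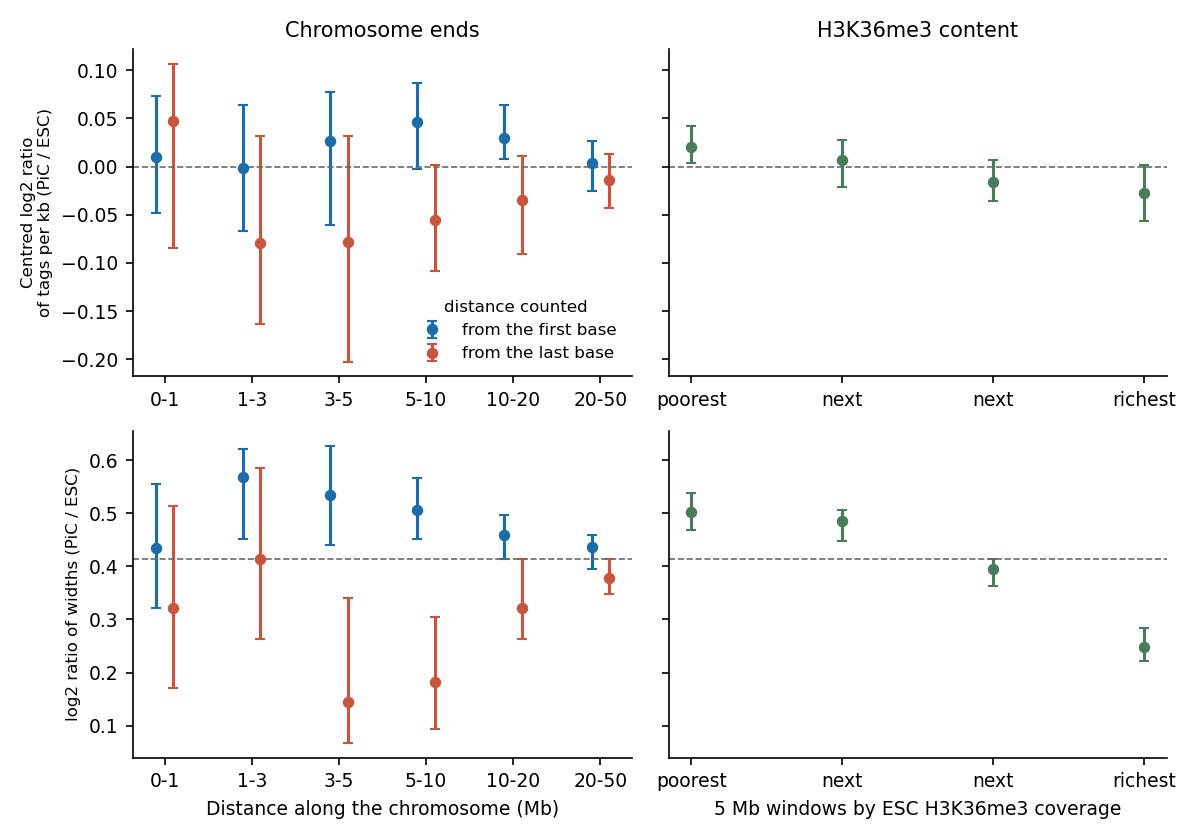
Median log2 ratios of PiC over ESC with 95% intervals over islands, for centred tags per kb (top) and width (bottom), are plotted by distance in Mb from the first and the last base under any island of each autosome (left) and for 4 classes of 5 Mb windows from poorest to richest in H3K36me3 (right), with dashed lines at the median of all pairs. Width ratios near the last base reach 0.14 at 3 to 5 Mb, and they go from 0.50 to 0.25 with H3K36me3 while density ratios go from 0.020 to -0.028.

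In the 5 Mb bins, 80% of the density medians lay between -0.18 and 0.15. The interval of the median excluded 0 in 15 of 283 bins (5.3%), 9 above and 6 below. Intervals at the level used here would exclude 0 in about this share of bins without any regional difference. The count thus does not show that density differed between regions. The bins named next were picked as the extremes, so their ratios are descriptions. The highest was chromosome 7 at 30000001 to 35000000, with 0.33 (0.20 to 0.42) over 58 pairs. Chromosome 6 at 40 to 45 Mb had 0.31, and chromosome 7 at 45 to 50 Mb and chromosome 3 at 40 to 45 Mb had 0.25 each. The lowest was chromosome 13 at 90000001 to 95000000, with -0.41 (-0.60 to 0.10) over 21 pairs. Chromosome 8 at 125 to 130 Mb had -0.37, chromosome 13 at 105 to 110 Mb had -0.30 (-0.39 to -0.095) and chromosome 8 at 60 to 65 Mb had -0.29. Of these 8 bins, the intervals of 3 excluded 0, those on chromosome 7 at 30 Mb, on chromosome 3 and on chromosome 13 at 105 Mb. For the log2 width ratio, the interval of 24 bins (8.48%) excluded that of all pairs.

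Single islands showed little likeness to their neighbours in density. Between neighbouring pairs less than 10 kb apart, the centred ratios of tags per kb had a Pearson correlation of 0.061 over 1430 neighbours. That of the ratios of tags was 0.25 and that of the width ratios 0.13. Neighbours share their 2 libraries and their surroundings, and no p is given.

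The longer PiC list was cut to the 17697 islands with the most tags, at least 67 tags each, to compare width, gap and clustering at equal numbers. The cut removes the smallest PiC islands and no ESC island, so it favours wide islands in PiC. The median width was 2.6 kb in ESC (10th to 90th percentile 1.0 to 5.4 kb) and 3.8 kb in PiC (2.2 to 7.6 kb). Islands of 10 kb or more numbered 190 in ESC and 732 in PiC, 3.85 times as many. The islands covered 53.2 and 80.0 Mb. The PiC islands were wider on 19 of 19 autosomes.

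The median gap to the next island was 51.4 kb (49.4 to 53.0) in ESC and 43.4 kb (41.8 to 45.2) in PiC, a ratio of 0.844. The median distance between island midpoints was 54.4 and 48.1 kb. A neighbour within 10 kb was found for 39.7% (39.0% to 40.4%) of ESC islands and 42.5% (41.8% to 43.2%) of PiC islands. Counted between midpoints, however, the share of neighbouring distances within 10 kb was 18.6% in ESC and 16.2% in PiC, the opposite order. The gap was shorter in PiC on 15 of 19 autosomes, and the share with a near neighbour was higher on 14.

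Cutting the PiC list by tags per kb in place of tags gave another result for spacing. The median gap was then 49.6 kb (48.2 to 51.4), the median distance between midpoints 53.4 kb, the share with a near neighbour 39.5%, and the median width 3.0 kb. The closer spacing thus depended on the cut, whereas the greater width and the clusters described next were found with either.

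Clusters were stretches of at least 50 kb in which no gap between islands exceeded 10 kb. They numbered 16 in the ESC list and 82 in the PiC list of equal size. The clusters held 114 and 571 islands, and their islands covered 0.746 and 4.00 Mb. With the cut by tags per kb the PiC list held 64 clusters. Clusters occurred on 10 autosomes in ESC and on 17 in PiC. PiC had more of them on 15 autosomes and ESC on 1. Of the ESC clusters, 11 of 16 (68.8%) overlapped a PiC cluster, and of the PiC clusters 12 of 82 (14.6%) overlapped an ESC cluster. A span of 50 kb is reached more easily by wider islands, so runs of at least 5 islands, whatever their span, were counted too, as a measure added after the data had been seen. They numbered 93 in ESC, with 3.07% of the islands, and 143 in PiC, with 5.07%, a smaller difference than that of the clusters.

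**Figure D5:**
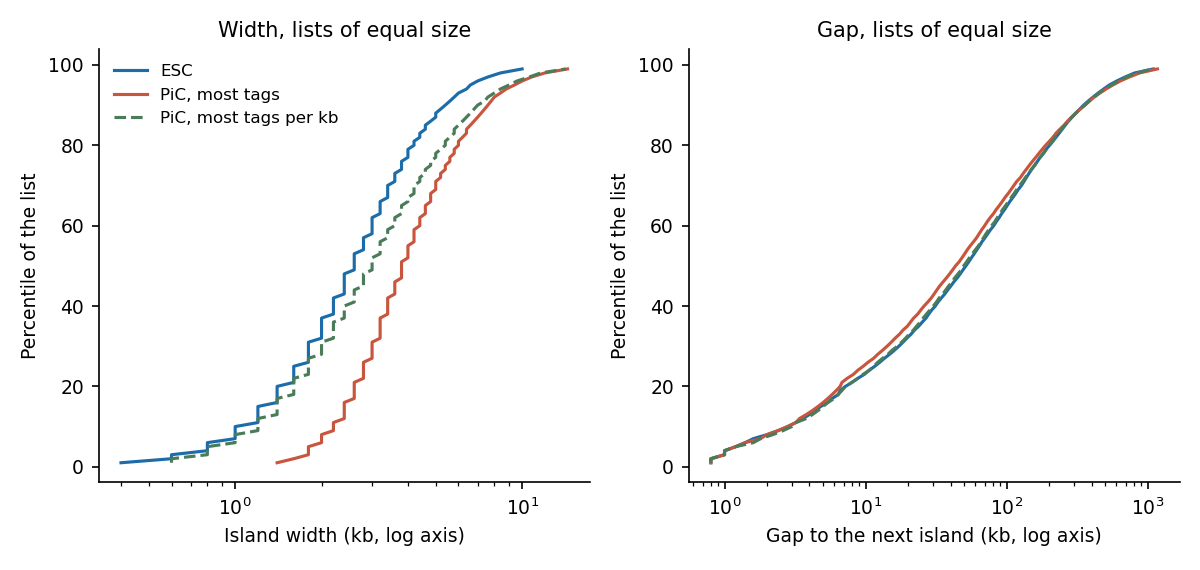
Percentiles of the lists of 17697 islands (vertical axis) are plotted against island width (left) and the gap to the next island (right), both in kb on log axes, for ESC, for the PiC islands with the most tags and for those with the most tags per kb. PiC widths lie to the right of ESC in either cut (medians of 3.8 and 3.0 against 2.6 kb), and PiC gaps are shorter with the cut by tags (43.4 against 51.4 kb) and close to ESC with the cut by tags per kb (49.6 kb).

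The widest PiC cluster began at the first H3K9me3 island of chromosome 3 and spanned 3000201 to 3250200, 250.0 kb with 20 islands that covered 80.6% of it at 34.7 tags per kb. The full ESC list had 13 islands in the same span, which covered 23.0% at 21.2 tags per kb. Chromosome 7 held the next pair of PiC clusters. The one at 55572401 to 55697800 had 74.0 of 125.4 kb covered in PiC and 50 kb in ESC, and the one at 69822801 to 69947600 was covered to 70.7% and 29.7%. The cluster on chromosome 18 at 36963801 to 37077600 had 8 PiC islands over 83.8% of its span and 12 ESC islands over 55.5%. The ESC list held more islands than the PiC list in 2 of these 4 spans and covered less of the span in all 4. The spans had been picked as clusters of PiC, so the lower ESC coverage follows in part from that choice.

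The widest ESC cluster, on chromosome 17 at 27356601 to 27569800, spanned 213.2 kb and went the other way. In ESC 16 islands covered 82.9% of it, and in PiC 12 islands covered 59.9%, at 49.3 and 58.9 tags per kb. The second ESC cluster, on chromosome 10 at 82841201 to 82949600, was covered to 77.1% in ESC and 76.9% in PiC. The third (chromosome 7, 55587801 to 55668200) was covered to 42.8% and 59.5%, and the fourth (chromosome 2, 181631401 to 181708000) to 41.5% and 62.4%. Coverage was thus higher in PiC at 2 of these 4 sites, although they had been picked as clusters of ESC.

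A single PiC island joined 5 ESC islands and 6 joined 4, of which the first 2 by position are described. On chromosome 3, inside the widest PiC cluster, a PiC island of 19 kb (3175601 to 3194600) with 711 tags spanned 5 ESC islands with 278 tags in 13.2 kb. Its centred log2 ratio was 0.40, from 21.1 to 37.4 tags per kb. On chromosome 2, a PiC island of 20.8 kb (181662601 to 181683400, 792 tags) spanned 4 ESC islands with 433 tags in 11.0 kb, with a ratio of -0.47. On chromosome 6, a PiC island of 15.6 kb (149304401 to 149320000, 494 tags) spanned 4 with 379 tags in 9.0 kb, with a ratio of -0.84. The ratio was thus positive at the first of these joined islands and negative at the others. Each PiC island also takes in gaps between its ESC islands, of 7.2, 9.2 and 3.8 kb in the order given. The gaps count in the PiC density alone, so these signs do not tell whether the joined stretches differ in density from the pairs.

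Chromosome 15 stood apart in the lists of equal size as well. It held 1107 ESC islands and 707 PiC islands, a ratio of 0.639 that was the lowest of the autosomes, whereas chromosome 3 had the highest at 1.20. The median gap on chromosome 15 was 33.8 kb in ESC and 53.7 kb in PiC, and it held 2 clusters in ESC and none in PiC. Chromosome 1 held 2 clusters in ESC and 16 in PiC, and chromosome 7 held 2 and 10.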

How the data were processed

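H3K9me3 islands of 1 ESC and 1 PiC library, grouped by sample title, were analysed, with the H3K36me3 islands of the same conditions as annotation. Values of the input were not used here. The islands were called with SICER, which joins enriched windows over short gaps, on build mm9, per the submitters' processing notes. Not given in the sources used here are its version and settings, the aligner, the handling of duplicate reads and the use of input. The deposited files have no header, and their whole-number column was read as the authors' unscaled count of tags per island, the layout in which SICER writes such lists. Deposited ends were 1 base short of the 200 bp grid, so 1 was added to the ends. Smallest gaps were 800 bp in both H3K9me3 lists.

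Pairs overlapped by at least 1 bp and were the only partners of each other. Tags were divided by each island's own width, and log2 ratios were centred on their autosomal median. Intervals of medians are exact binomial intervals on ranks, and those of shares are Clopper-Pearson. The tag total per list counts tags inside islands alone and depends on their number and width too, so it does not measure read depth. Regions were named by rule: the 4 pairs with the most tags, the 8 highest and 8 lowest ratios among pairs with at least 200 tags and widths within 1.5-fold, the 4 widest clusters per list, the 3 PiC islands that joined the most ESC islands, and the 4 highest and 4 lowest 5 Mb bins. The islands compared, the limits and the rules were chosen with earlier results of these data known. No gene names or sequences were assigned, since the gene tables at hand were of another build. Scripts in Python 3.11.15 (numpy 2.4.6, pandas 2.3.3, scipy 1.17.1, matplotlib 3.10.9) were tested on simulated lists. Alternatives covered the overlap, tag and width rules, the length of the lists and the limits of clusters.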

Additional observations from a re-analysis of the deposited data

How the results depend on the processing

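No paired analysis was possible because a single library stands for each condition, and no replicate could be left out. With tags not divided by width, the 20 single islands named by tags or ratio kept their sign, but 15 of them moved beyond their counting interval, as given with their values. Under the other settings, recomputed after the data had been seen, a named island keeps its own tags and widths, and only the centring value changes. That change exceeded the counting interval for 4 of 20 with a reciprocal overlap of 50% and 3 of 19 with the lists cut by tags. It did so for 1 of 20 with at least 50 tags and 3 of 5 with edges within 200 bp. No sign was reversed, but a shift common to all islands cannot show how stable single islands are. Leaving out chromosome 15 moved no summary value beyond its interval. Pairing by a reciprocal overlap of 50% left 8821 pairs. The centring value was then 0.52, the share at least 2-fold higher in PiC 0.329%, the share lower 2.04%, the centred ratio -0.13 in the narrowest and 0.067 in the widest class, and -0.20 where H3K36me3 touched in both conditions. The log2 width ratio was 0.22 over all pairs, 0.11 in the last 10 Mb and 0.14 in the windows richest in H3K36me3. With each list cut to its 50% richest in tags (6303 pairs), the centring value was 0.48, the shares 0.413% and 3.54%, and the centred ratio 0.084 in the widest class, -0.16 past 75 Mb of chromosome 15 (74 pairs), -0.10 in the last 10 Mb and -0.21 with H3K36me3. Width ratios were 0.37 over all and 0.022 past 75 Mb.

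With tags not divided by width, the centring value was 0.90, the share higher 5.78%, and the centred ratio -0.15 in the narrowest class, 0.041 in the widest, -0.53 past 75 Mb, 0.095 in the first 10 Mb, -0.22 in the last 10 Mb and -0.38 with H3K36me3. With at least 50 tags in each island (8134 pairs), the centring value was 0.46, the shares 0.775% and 3.88%, the narrowest class -0.25, the last 10 Mb -0.090, and the width ratios 0.32 over all, 0.17 in the last 10 Mb and 0.16 in the richest windows. The narrowest class gave -0.34 by ESC width and, with its sign reversed, 0.089 by PiC width, where the widest gave 0.024. Edges within 200 bp, added after the data had been seen, gave a centring value of 0.59, shares of 0.0478% and 1.48%, and -0.086 in the narrowest class.

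The lists of equal size gave a PiC width of 3.0 kb, a gap of 49.6 kb and a near-neighbour share of 39.5% when cut by tags per kb. With 10000 islands each they were 5.2 kb, 67.0 kb and 34.5%, with 48 clusters and 48 runs of at least 5 islands, against 3.4 kb, 85.2 kb, 33.2%, 8 and 19 in ESC. With 5000 each they were 6.6 kb, 112.6 kb, 28.0%, 23 and 18, against 4.4 kb, 151.0 kb, 28.7%, 4 and 8. The near-neighbour share was thus higher in PiC with 10000 and not with 5000. The full PiC list gave 3.2 kb, 33.8 kb, 46.9% and 289 runs. Clusters in PiC numbered 18 with gaps of up to 5 kb, 327 with gaps of up to 20 kb and 8 with a span of 100 kb, against 4, 161 and 2 in ESC. A neighbour within 5 kb was found for 28.6% of PiC and 27.5% of ESC islands. The cause of these shifts was not tested. Depth limits the reading of single pairs under 100 tags, and the read totals behind the lists are unknown.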

Other observations

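Where ESC islands were divided in PiC, 271 ESC islands met several PiC islands, and 3 of them met 3 or more. Between neighbouring pairs 500 to 1000 kb apart, the Pearson correlation of the ratios of tags was 0.16 over 924 neighbours, and that of tags per kb -0.026. Regional likeness in tags therefore reached further than in density. The densest pair among those with the most tags, on chromosome 2, lay 95.2 Mb past the first island of that chromosome, far from its start, whereas the others lay within 0.1 Mb of the first island of chromosomes 9 and 11.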
